A study of Mus musculus with 6 samples.

Results

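The genes described here are those of the mouse major histocompatibility complex, called H2, and of antigen presentation, measured in epididymal fat. They were chosen by name: every gene whose name on the array starts with H2-, together with B2m, Cd74, Ciita, Tap1, Tap2, Tapbp, Nlrc5, Psmb8, Psmb9 and Psmb10. The array carried 74 probes for 48 such genes, out of 41174 probes and 29182 genes. A probe was kept where 3 or more of the 6 arrays marked it as well above background. This left 60 probes of 36 genes, out of 19194 genes tested, and each gene is given by its brightest kept probe unless another is named. All 60 kept probes were well above background on all 6 arrays and none was saturated. By role, 24 of the 36 genes belong to the class I pathway, of which 16 are counted by name as class I heavy chain genes, and 10 belong to the class II pathway. The remaining 2, H2-Ke2 and H2-Ke6, carry the H2 prefix for their place in the complex. They encode a prefoldin subunit and a steroid dehydrogenase and present no antigen.

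Class I molecules pair a polymorphic heavy chain with beta-2 microglobulin and show peptides cut by the proteasome to CD8 T cells. The peptides are pumped into the endoplasmic reticulum by the TAP transporter and loaded there with the help of tapasin. Class II molecules show peptides from endosomes to CD4 T cells, and are made mainly by macrophages, dendritic cells and B cells, which in fat lie between the adipocytes. The invariant chain fills their groove until DM removes the last fragment of it, and DO holds DM back. The regulators Nlrc5 and Ciita switch on class I and class II genes.

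Epididymal white adipose tissue, a fat depot next to the testis, was taken from 3 wild type and 3 patDp/+ mice, each hybridised to its own one-colour array. All were males on the C57BL/6 background, aged 9 to 10 weeks. patDp/+ mice are a mouse model with an engineered duplication, inherited from the father, of the stretch that corresponds to human 15q11-13. They carry it in every cell, and the wild type mice lack it. The comparison asks how the transcripts of fat in young adult animals differ between these genotypes. The H2 complex lies on chromosome 17, outside the duplication.

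Each array had 63.8% to 72.1% of its probes well above background, lowest on that of patDp/+ replicate 3. Of 11 genes listed for the duplicated stretch, 8 were tested. Of these, 6 were higher in patDp/+ fat, all at an unadjusted p under 0.05 in limma, and the others were not higher. The 8 log2 differences ran from -0.60 to 1.18, with a median of 0.62. All 8 adipocyte markers were measured, whereas 7 markers of the neighbouring epididymis had no kept probe and the 2 that had one summed to 0.054 to 0.0657 in wild type and 0.0353 to 0.0561 in patDp/+ fat, on the linear scale relative to the 75th percentile. The arrays lay on 3 slides, each with 1 array of either genotype. Across all genes 0 passed an adjusted p under 0.05 in limma, and 1107, or 5.77%, had an unadjusted p under 0.05.

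Class I heavy chain genes arose by repeated duplication, so their transcripts are alike and a 60-base probe can take up the signal of several. Among probes of different H2 genes, 5 pairs shared an identical run of 20 or more bases. The probes below are those pairs, shown 5′ to 3′ with the run they share in capitals.

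H2-Q10, probe A_51_P496997: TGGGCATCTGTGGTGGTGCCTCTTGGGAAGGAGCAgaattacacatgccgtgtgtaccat
H2-Q5, probe A_51_P400752: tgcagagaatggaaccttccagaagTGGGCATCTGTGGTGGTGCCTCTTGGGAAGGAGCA
H2-K2, probe A_51_P444565: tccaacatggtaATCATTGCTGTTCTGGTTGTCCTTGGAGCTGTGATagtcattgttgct
H2-Q2, probe A_51_P219789: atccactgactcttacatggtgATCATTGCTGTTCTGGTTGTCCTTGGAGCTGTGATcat
H2-Q7, probe A_51_P262079: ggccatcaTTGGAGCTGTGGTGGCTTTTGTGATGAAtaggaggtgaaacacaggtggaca
H2-T23, probe A_51_P237754: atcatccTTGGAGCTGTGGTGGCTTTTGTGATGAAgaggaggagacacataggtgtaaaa
H2-D1, probe A_52_P313279: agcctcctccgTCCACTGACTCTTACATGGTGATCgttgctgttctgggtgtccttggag
H2-K1, probe A_52_P50496: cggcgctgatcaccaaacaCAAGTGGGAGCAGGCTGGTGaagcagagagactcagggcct
H2-Q10, probe A_52_P428354: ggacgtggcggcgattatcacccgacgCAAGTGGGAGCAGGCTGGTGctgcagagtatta

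The runs were 35 bases long between H2-Q10 and H2-Q5 and between H2-K2 and H2-Q2, and 28 between H2-Q7 and H2-T23. They were 24 bases between H2-D1 and H2-Q2, a run that is mostly in lower case in the H2-Q2 probe as printed, and 20 between H2-K1 and the other H2-Q10 probe. By the array's own annotation, 5 probes list more than 1 H2 gene. The brightest H2-Q10 probe lists H2-D1, H2-Q1 and H2-Q6 as well, that of H2-Q7 lists H2-Q9, and that of H2-D1 lists H2-Q2. These probes are already among the pairs above. The brightest H2-T22 probe lists H2-T10, and 1 of the H2-DMb1 probes lists H2-DMb2. In all, 11 of the 60 kept probes shared sequence or a listed gene, and 7 of the 16 heavy chain genes are represented by such a probe. Their values are not independent of each other. The levels that follow are therefore those of a probe, and the level of 1 probe is not set against that of another.

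A second set holds the H2-Q10 probes that list no other H2 gene and share no run of 20 bases with a kept probe of another gene described here. Probes were compared with each other and not with whole transcripts. Whether these probes also take up signal of other H2 transcripts was not tested. All 3 lie 3′ of the brightest probe on the plus strand of chromosome 17 (mm9), at chr17:35610468-35610527, chr17:35610777-35610836 and chr17:35611365-35611424. No base is in capitals.

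H2-Q10, probe A_51_P230267: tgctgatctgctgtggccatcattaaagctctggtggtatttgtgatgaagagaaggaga
H2-Q10, probe A_52_P112219: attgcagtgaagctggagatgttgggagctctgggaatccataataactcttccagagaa
H2-Q10, probe A_51_P230269: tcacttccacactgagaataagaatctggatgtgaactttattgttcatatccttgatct

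The last set holds the probes of class II and loading genes whose values are given in full further on. The DM probes are of H2-DMa and H2-DMb1, and Tapbp and Psmb8 belong to class I loading and cutting.

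H2-DMa, probe A_51_P473734: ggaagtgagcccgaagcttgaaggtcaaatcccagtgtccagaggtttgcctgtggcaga
H2-DMb1, probe A_51_P278868: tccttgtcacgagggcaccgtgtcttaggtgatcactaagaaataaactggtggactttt
Tapbp, probe A_51_P304500: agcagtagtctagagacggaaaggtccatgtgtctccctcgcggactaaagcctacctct
Psmb8, probe A_51_P345366: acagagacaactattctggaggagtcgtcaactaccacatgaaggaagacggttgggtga

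Antigen presentation genes of fat differed little between the genotypes. None of the 36 passed a test: 0 had an unadjusted p under 0.05 in limma, against 5.77% of all genes (2.37% higher and 3.4% lower), and the adjusted p ran from 0.857 to 0.999. The class I pathway had a median log2 difference of -0.0845 (patDp/+ minus wild type), with 20 of 24 genes lower, and the class II pathway a median of 0.0481, with 7 of 10 higher. Over all genes tested the median was -0.0211, and 56.5% were lower. In 8 of the 36 genes every patDp/+ array lay below every wild type array, and in 1 above, where 6.85% of all genes were lower and 4.39% higher in this way. The standard errors were small, with a median of 0.0891 against 0.116 over all genes. Signs of class I and class II were not tested against each other, as their genes were chosen with earlier results of these data known.

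**Figure D1:**
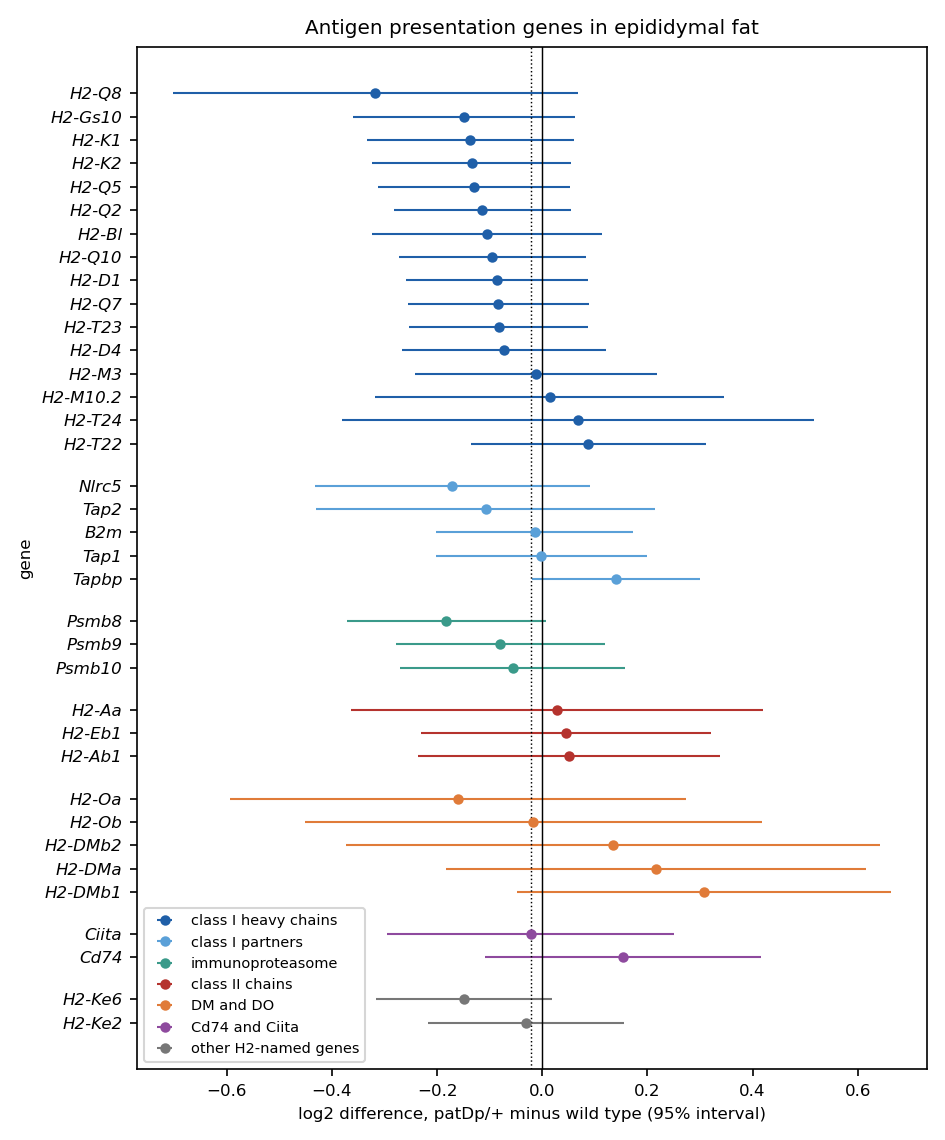
Log2 difference of each of the 36 genes, patDp/+ minus wild type, with limma's 95% interval, grouped by role. The dotted line marks the median of all genes (-0.0211), and every interval includes 0.

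Values below are log2 intensities relative to the 75th percentile of their array, so that 0 is the level that 25% of probes exceed. H2-K1 encodes the K heavy chain, a classical class I molecule. Its level was 7.20, 7.18 and 7.16 in wild type replicates 1 to 3 and 7.06, 6.93 and 7.14 in patDp/+ replicates 1 to 3. The groups did not overlap, but patDp/+ replicate 3 lay close to the wild type arrays. The log2 difference was -0.14 ± 0.08 (SE, n = 3 against 3; limma, adjusted p = 0.889), and all 4 of its probes were lower, from -0.21 to -0.082. H2-D1, the other classical heavy chain gene of this strain with a kept probe, measured 6.92, 6.87 and 6.86 in wild type and 6.86, 6.76 and 6.77 in patDp/+ fat. These ranges met at 6.86, and the difference was -0.086 ± 0.071.

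Most nonclassical heavy chain genes, of the Q, T and M regions, had values on the same side. By the brightest probe of each gene, H2-Q8 had the lowest of all, -0.32 ± 0.16, with an interval from -0.70 to 0.067. It measured 0.98, 0.77 and 0.72 in wild type and 0.79, 0.23 and 0.50 in patDp/+ fat, so that patDp/+ replicate 1 lay within the wild type range. Leaving out patDp/+ replicate 2 gave -0.18, and leaving out patDp/+ replicate 1 gave -0.46, at an unadjusted p under 0.05 in limma. H2-Gs10, now named H2-Q4, had -0.15 ± 0.09, and H2-K2, a gene beside H2-K1, -0.13 ± 0.08. H2-Q2 had -0.11 and H2-Q5 -0.13. H2-T23, which encodes Qa-1, a ligand of inhibitory receptors on natural killer cells, had -0.083 ± 0.070, and H2-Q7, a Qa-2 gene, -0.083 ± 0.071. In H2-K1, H2-K2, H2-Gs10, H2-Q2, H2-Q5 and H2-T23 the groups did not overlap, and 3 of these 6 are represented by probes that share sequence. H2-Bl had -0.10 and H2-D4 -0.072. The probes of H2-D4 and H2-Q5 have no mapped position and were not matched to RefSeq, so the gene that each reads was not checked.

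The M and T regions also held the heavy chain gene nearest to 0, H2-M3, and all those above 0. H2-M3, which presents peptides that start with formyl-methionine, had -0.012 ± 0.095. H2-T22, whose product binds some gamma delta T cell receptors, had 0.088 ± 0.092. H2-M10.2 (0.014 ± 0.136) and H2-T24 (0.069 ± 0.185) had dim probes and wide intervals, from -0.32 to 0.35 and from -0.38 to 0.52. Over all 16 heavy chains the median was -0.0904, with 13 lower, and within slides 1, 2 and 3 it was -0.0593, -0.177 and -0.0753.

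H2-Q10 differed most among its own probes. Its product is a class I molecule that is secreted, chiefly by the liver. The brightest probe, which lists 3 other genes and shares 35 bases with the H2-Q5 probe, measured 6.20, 6.16 and 6.13 in wild type and 6.15, 6.04 and 6.03 in patDp/+ fat. Its difference was -0.095 ± 0.073, as small as that of its neighbours. The probe A_51_P230267, with no shared run, measured 2.19, 1.20 and 1.61 in wild type and 0.91, 0.82 and 0.75 in patDp/+ fat. Every patDp/+ array lay below every wild type array, and the wild type arrays were spread over 1 log2 unit with replicate 1 highest. When each probe was fitted by itself, a fit added after the data were seen, the difference was -0.84 ± 0.24, or 1.79-fold lower (limma, adjusted p = 0.931). The probe A_51_P230269, nearest to the 3′ end, gave 2.95, 1.92 and 2.34 in wild type and 1.60, 1.57 and 1.56 in patDp/+ fat. This again put the groups apart, with patDp/+ arrays within 0.05 of each other, and the difference was -0.82 ± 0.25 (limma, adjusted p = 0.931).

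The third probe without a shared run, A_52_P112219, lies between these. It was dim, at -1.68, -1.43 and -2.19 in wild type and -1.90, -2.47 and -1.97 in patDp/+ fat. Its groups overlapped (-0.34 ± 0.24). The fifth probe, A_52_P428354, which shares 20 bases with an H2-K1 probe, had -0.18 ± 0.09 with groups that did not overlap. All 5 H2-Q10 probes had values below 0, as had 56.6% of all kept probes, and in 3 of them the groups did not overlap, where 6.59% of all were lower in this way. Among the 60 kept H2 and pathway probes, A_51_P230267 and A_51_P230269 were the only 2 at an unadjusted p under 0.05 in limma, against 5.26% of all 27975 kept probes (3.16% lower). Both are probes of 1 gene and are not independent. Taken as a gene, H2-Q10 had -0.46 with the mean of its 5 probes and -0.82 with its brightest probe without a shared run, each at an unadjusted p under 0.05 in limma. Their size depended on single wild type arrays. Without replicate 1 the differences of A_51_P230267 and A_51_P230269 were -0.58 and -0.55, and without wild type replicate 2 they were -1.08 and -1.06. Of the other 14 genes with several kept probes, B2m had the widest span, from -0.33 to -0.015, and the probes of 12 of the 15 had 1 sign.

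**Figure D2:**
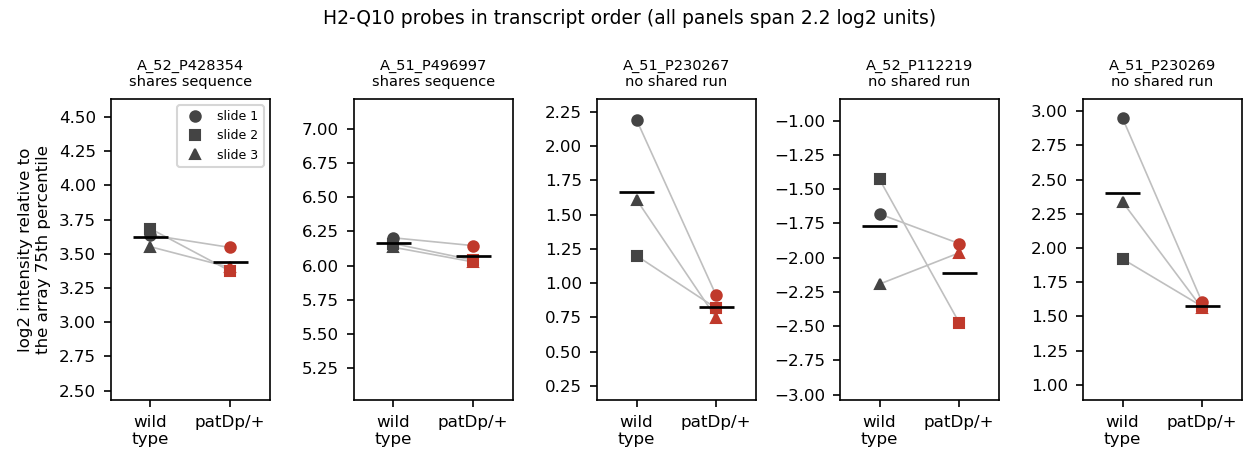
The 5 H2-Q10 probes in the order of their positions along the transcript, with the log2 intensity relative to the array's 75th percentile on the y axis, 1 point per array, lines joining arrays of a slide and bars for group means. The probes A_51_P230267 and A_51_P230269 show the patDp/+ arrays below all wild type arrays, and both probes that share sequence differ by 0.095 and 0.18.

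The partners of class I heavy chains did not share 1 direction. B2m, the gene of beta-2 microglobulin, measured 7.26, 7.11 and 7.24 in wild type and 7.20, 7.14 and 7.22 in patDp/+ fat. The groups overlapped fully, with a difference of -0.015 ± 0.077 and an interval from -0.20 to 0.17. Tap1 and Tap2, which together form the peptide transporter, had -0.0020 ± 0.083 and -0.11 ± 0.13. Tapbp, the tapasin gene, was the 1 gene with all patDp/+ arrays above the wild type arrays, at 5.20, 5.24 and 5.25 in wild type and 5.37, 5.38 and 5.35 in patDp/+ fat. Its standard error was the smallest of the 36 genes, and the difference was 0.14 ± 0.07 (limma, adjusted p = 0.866), but 0.024 with normexp background correction. Its second probe, A_52_P684830, had 0.029 ± 0.11 with overlapping groups, so that the separation rests on the brightest probe. Nlrc5, the class I regulator, had -0.17 ± 0.11 and turned to 0.39 with normexp. Without patDp/+ replicate 1 it had -0.27, at an unadjusted p under 0.05 in limma, and without patDp/+ replicate 2 -0.093.

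The inducible proteasome subunits replace the standard catalytic subunits and change which peptides are cut. All 3 were lower, with a median of -0.0794. Psmb8 had the smallest p of all 36 genes: it measured 3.25, 3.29 and 3.12 in wild type and 3.07, 3.04 and 3.0 in patDp/+ fat. The groups did not overlap, and the difference was -0.18 ± 0.08 (limma, adjusted p = 0.857). Psmb9 had -0.079 ± 0.082 and Psmb10 -0.056 ± 0.088, and both groups overlapped. Within slides 1, 2 and 3 the median of the 3 genes was -0.15, -0.125 and -0.0078. Leaving out wild type replicate 1 gave -0.037, leaving out wild type replicate 3 gave -0.139, and normexp gave -0.187.

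Class II chains had differences near 0. H2-Ab1, the beta chain of the A molecule, measured 5.80, 5.84 and 5.58 in wild type and 5.98, 5.70 and 5.70 in patDp/+ fat. The arrays were intermixed, with a difference of 0.051 ± 0.118. H2-Aa, the alpha chain, had 0.027 ± 0.161, and H2-Eb1, the beta chain of the E molecule, 0.045 ± 0.113. All 3 turned below 0 with normexp, to -0.090, -0.075 and -0.046, and their median within slides 1, 2 and 3 was 0.0772, -0.142 and 0.194. The probe of H2-Ea-ps, the E alpha pseudogene, was well above background on no array. The C57BL/6 strain is known to make no E alpha chain.

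H2-DMb1 and H2-DMa, genes of the peptide exchange factor DM, had the 2 highest differences of the 36 genes. H2-DMb1 measured 2.93, 2.75 and 2.83 in wild type and 3.37, 3.21 and 2.85 in patDp/+ fat. Replicates 1 and 2 of patDp/+ lay above all wild type arrays, and replicate 3 lay within them. The difference was 0.31 ± 0.15, or 1.24-fold (limma, adjusted p = 0.866), and its interval ran from -0.047 to 0.66. H2-DMa measured 1.44, 1.42 and 1.20 in wild type and 1.81, 1.65 and 1.24 in patDp/+ fat, with patDp/+ replicates 1 and 2 again above all wild type arrays and replicate 3 within them, and a difference of 0.22 ± 0.16. H2-DMb2, whose probe was dim, had 0.13 ± 0.21, with 0.59, 0.15 and -0.34 within slides 1, 2 and 3. These values depended on patDp/+ replicate 3. Without it H2-DMb1 had 0.46 and H2-DMa 0.38, both at an unadjusted p under 0.05 in limma, while 1812 of all genes reached it then. The median of the 3 DM genes was 0.216 with all arrays, 0.381 without patDp/+ replicate 3 and 0.0952 without patDp/+ replicate 1.

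Cd74, the gene of the invariant chain, measured 5.65, 5.52 and 5.39 in wild type and 5.81, 5.67 and 5.54 in patDp/+ fat. The groups overlapped, but within each slide the patDp/+ array was higher, by 0.16, 0.15 and 0.15. The difference was 0.15 ± 0.11 (limma, adjusted p = 0.905), 0.061 with normexp, and 0.086 on leaving out either wild type replicate 3 or patDp/+ replicate 1. Ciita, the class II regulator, had -0.022 ± 0.112. The DO genes, which are mainly active in B cells, were dim. H2-Oa had -0.16 ± 0.18 and H2-Ob -0.017 ± 0.179, and both turned above 0 with normexp, to 0.20 and 0.61.

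**Figure D3:**
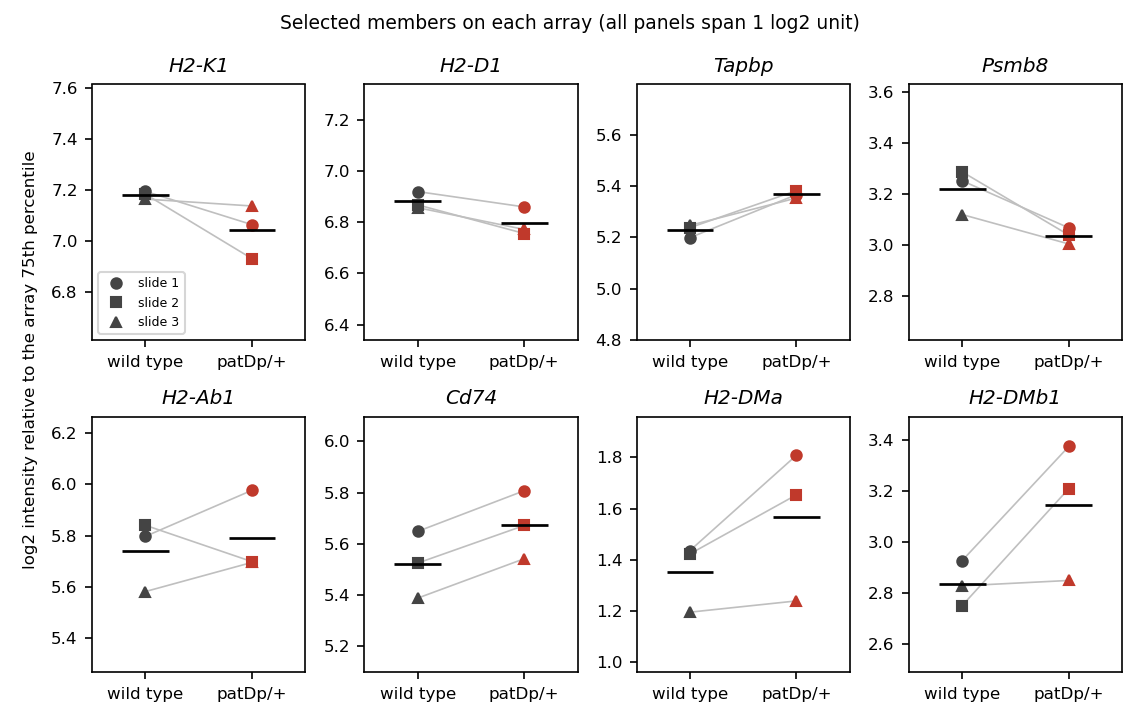
Log2 intensity relative to the array's 75th percentile for 8 genes on each array, with lines joining arrays of a slide and bars for group means. H2-K1, Tapbp and Psmb8 show groups that do not overlap, Cd74 is 0.15 to 0.16 higher in patDp/+ on each slide, and in H2-DMa and H2-DMb1 patDp/+ replicate 3 (slide 3) lies near wild type.

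H2-Ke6, of the genes that present no antigen, lay beside these in size, with -0.15 ± 0.07, groups that did not overlap (2.19, 2.19 and 2.14 against 2.01, 2.08 and 2.0) and an adjusted p = 0.862 in limma. H2-Ke2 had -0.031 ± 0.077. The 12 genes without a kept probe were H2-Ea-ps, H2-Eb2, H2-M1, H2-M9, H2-M10.1, H2-M10.3, H2-M10.4, H2-M10.5, H2-M10.6, H2-M11, H2-Q1 and H2-T3. Of these, 9 were well above background on no array and 3 on 1 array (H2-M9, H2-Q1 and H2-T3), with processed intensities of 3.43 to 38, and no difference is given for them.

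The remaining genes of both pathways were taken as lists, whose members are in part expressed by every cell. Of 22 class I genes, among them chaperones, trimming peptidases and regulators, all were tested. Their median was -0.0146, with 10 higher and 1 at an unadjusted p under 0.05 (2.37% of all genes were higher in this way). The direction of the median was not stable, at 0.017 with 12 higher in the deposited table, 0.025 on leaving out patDp/+ replicate 2, and -0.069 with 3 higher under normexp. The 1 gene was Rfx5, a subunit of the factor that binds the X box of class I and class II promoters, with 0.19 ± 0.07 (limma, adjusted p = 0.857) and a value of 0.55 with normexp. Rfxap, its partner subunit, had -0.15 ± 0.08. Psme1, of the proteasome activator, had 0.095, or -0.026 with normexp. Erap1, a peptidase that trims class I peptides, had -0.16, but its probe had no value on the array of wild type replicate 2. With the mean of its probes it had 0.86. That mean lacks the brightest probe on this array alone, so it does not compare like with like.

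Of the class II genes, among them endosomal proteases, costimulators and regulators, 18 were tested. The median was 0.11, with 13 higher and 1 at an unadjusted p under 0.05 in limma (2.37% of all genes were higher in this way). Leaving out patDp/+ replicate 1 gave a median of 0.011 with 9 higher, and leaving out wild type replicate 1 gave 0.046. The 1 gene was Lgmn, which encodes an endosomal protease that cuts antigens and the invariant chain. It measured 3.51, 3.29 and 3.60 in wild type and 3.97, 3.96 and 3.70 in patDp/+ fat, with a difference of 0.41 ± 0.12 (limma, adjusted p = 0.851). Spib, a transcription factor of B cells and plasmacytoid dendritic cells, had -0.74 ± 0.36, but -0.0043 with normexp. Rab7b, of late endosomes, had 0.24 ± 0.12 and Nfyc, of the factor that binds CCAAT, -0.21 ± 0.11, the latter 0.031 with normexp.

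Markers of the cells that make class II molecules differed in several directions. All 13 macrophage markers were tested and 12 were higher, with a median of 0.224. Their summed level, on the linear scale relative to the 75th percentile, was 247 to 273 in wild type and 260 to 332 in patDp/+ fat, and 0 were at an unadjusted p under 0.05. Within slides 1, 2 and 3 their median was 0.309, 0.321 and 0.028, beside 0.446, 0.232 and 0.0211 for the DM genes. Of 10 dendritic cell markers 6 were higher, with a median of 0.166 and sums of 17.6 to 21.6 in wild type and 19 to 26.1 in patDp/+ fat. The dendritic median was -0.0053 without wild type replicate 1, 0.015 without patDp/+ replicate 1 and 0.284 without patDp/+ replicate 3, and with normexp all 10 were above 0. The macrophage median was 0.131 without patDp/+ replicate 1. In tissue as a whole, a change in the number of cells of a type and a change in RNA per cell cannot be told apart.

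Of the B cell markers 9 were tested. All 9 were lower, 4 of them at an unadjusted p under 0.05 (3.4% of all genes were lower in this way), with a median of -0.609 and sums of 2.08 to 2.78 in wild type and 1.1 to 2.18 in patDp/+ fat. Pax5 and Blk had no kept probe. The direction turned with normexp, where 6 of 9 were above 0 and the median was 0.18. Leaving out patDp/+ replicate 1 gave a median of -0.391, and leaving out replicate 3 gave -0.933. Cd79b, of the B cell receptor, had -0.76 ± 0.28 and stayed at -0.71 with normexp. Of 10 T cell markers, 9 were tested and all 9 were higher, 5 at an unadjusted p under 0.05 in limma (2.37% of all genes were higher in this way). Their median was 0.45, with sums of 1.39 to 1.53 in wild type and 1.95 to 2.17 in patDp/+ fat, while Cd4 had no kept probe. Cd8a, a chain of the co-receptor that binds class I molecules, had 1.34 ± 0.13, or 0.51 with the deposited table and 1.13 with normexp. Its adjusted p of 0.352 in limma was the smallest value over all genes tested. The Cd8a probe was dim, at -4.62, -4.90 and -4.84 in wild type and -3.45, -3.25 and -3.65 in patDp/+ fat. Small signal over background therefore limits the size of this difference. The part of these cell types in the values of the H2 genes was not tested. Endothelial markers, 6 of 6, were lower with a median of -0.2 (sums of 23.4 to 25.9 and 20.4 to 24.3), and adipocyte markers had a median of -0.101 with 7 of 8 lower (sums of 2040 to 2450 and 1960 to 2150), or 4 of 8 lower with quantile normalization. Mesothelial and erythroid markers had medians of 0.0637 (sums of 24.9 to 33.3 and 30.6 to 38.6) and 0.141 (403 to 620 and 442 to 779). Neither kept its direction. The mesothelial median was -0.0041 on leaving out patDp/+ replicate 2, and the erythroid median -0.185 on leaving out patDp/+ replicate 3 and -0.041 on leaving out wild type replicate 3. The adipocyte median was -0.038 on leaving out wild type replicate 1. Their part in the class I values was not tested either.

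**Figure D4:**
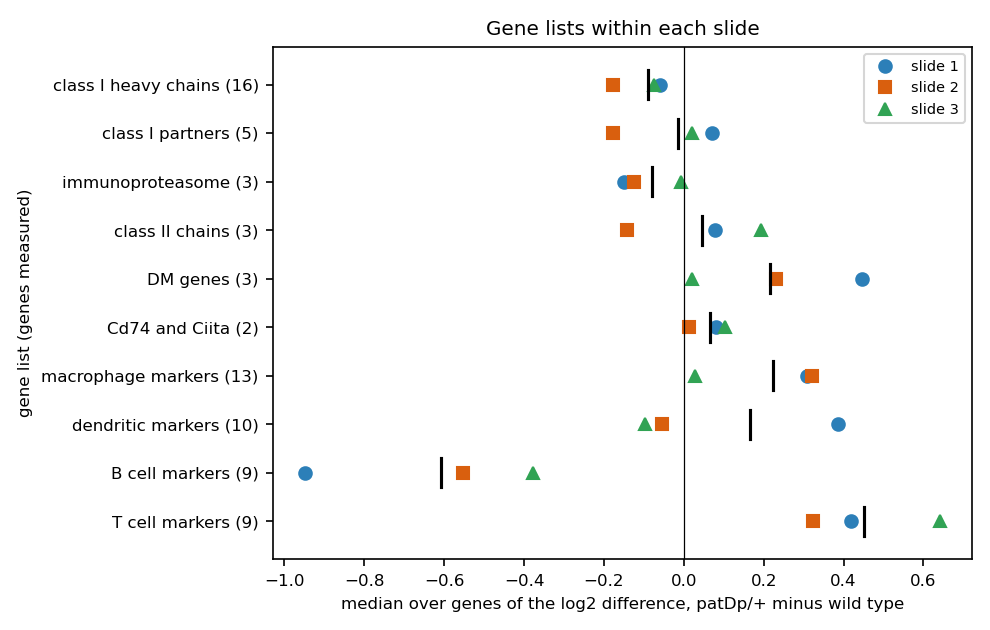
Median log2 difference, patDp/+ minus wild type, of each gene list within slides 1, 2 and 3 (points) and over all arrays (bars). Class I heavy chains lie between -0.177 and -0.0593 on the 3 slides, class II chains on both sides of 0, and the DM genes and macrophage markers near 0 on slide 3.

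Promoters of 35 of the 48 genes were found in RefSeq (GRCm38.p6), as windows of 250 bases before to 50 after the start, and were searched on both strands. The Y box core CCAAT, bound by the factor NF-Y, was in 17 of 19 heavy chain genes and 8 of 8 class II genes, against 37.4% of all 32851 promoters. These are not the sets of genes measured above. They include genes without a kept probe, among them most of the H2-M10 genes, H2-T3 and the class II gene H2-Eb2. Measured genes such as H2-K2, H2-Q5 and H2-Ab1 were not matched. A gene was counted where any of its windows held the motif, whereas the share is per window, and of the 2 windows of H2-DMa 1 held no CCAAT. The interferon-response core, GAAA and again GAAA after any 2 bases, was in 2 of 19 and 0 of 8 (3.44% of all), and TTCNNNGAA, the pattern of STAT sites, in 2 and 1 (8.3%). GGGANTTCC, a kappa B pattern, was in 1 and 1 (1.68%), and GGGATTCCC, a palindromic form searched after the sequences were seen, in 3 heavy chain genes, H2-K1, H2-D1 and H2-Q7 (0.353%). Motif matches are descriptions of these windows. The promoter of H2-K1 is printed as a heavy chain window with both CCAAT and the palindromic form, that of H2-Q10 as one with neither, and that of H2-DMb1 as a class II example. Capitals mark GGGATTCCC and CCAAT, the latter read as ATTGG where it lies on the other strand.

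H2-K1, minus strand, chr17:34000284-34000583: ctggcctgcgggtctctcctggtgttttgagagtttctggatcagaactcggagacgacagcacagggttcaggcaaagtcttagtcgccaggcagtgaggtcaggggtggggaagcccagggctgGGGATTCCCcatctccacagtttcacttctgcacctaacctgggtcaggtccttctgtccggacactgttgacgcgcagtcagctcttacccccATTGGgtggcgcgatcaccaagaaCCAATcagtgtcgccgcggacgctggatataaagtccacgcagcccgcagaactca
H2-Q10, plus strand, chr17:35469839-35470138: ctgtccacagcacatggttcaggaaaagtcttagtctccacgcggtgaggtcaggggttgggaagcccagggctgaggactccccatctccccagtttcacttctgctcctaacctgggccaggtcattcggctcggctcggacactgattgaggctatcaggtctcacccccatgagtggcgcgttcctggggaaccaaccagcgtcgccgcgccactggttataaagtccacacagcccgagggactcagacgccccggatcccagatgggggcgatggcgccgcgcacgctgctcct
H2-DMb1, plus strand, chr17:34152941-34153240: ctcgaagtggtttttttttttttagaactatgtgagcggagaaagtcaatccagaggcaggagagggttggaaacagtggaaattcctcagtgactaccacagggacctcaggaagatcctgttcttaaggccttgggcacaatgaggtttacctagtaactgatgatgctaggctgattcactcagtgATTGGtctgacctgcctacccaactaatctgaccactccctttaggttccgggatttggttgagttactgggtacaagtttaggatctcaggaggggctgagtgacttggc

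The printed H2-K1 window held CCAAT at 30 and 6 bases before the start, on opposite strands, and GGGATTCCC at 124 bases before it. A second H2-K1 window, from another annotated start, gave other distances. There CCAAT lay at 16 and -8 bases before the start, the latter being after it, and GGGATTCCC at 110. Of the 5 motifs the H2-Q10 window held none. The H2-DMb1 window held CCAAT at 61 bases before the start. H2-Q8, the heavy chain gene with the lowest value by its brightest probe, was not among the matched promoters.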

How the data were processed

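RNA of 6 mice was measured on one-colour Agilent arrays, 1 array per animal, with groups taken from the sample titles. Per the file headers, the processed intensity was made by Feature Extraction 9.5.1.1 with background subtracted within each array. Log2 values in a table the authors deposited served as an alternative. How its background was corrected is not stated, and the submitters' processing notes name limma 3.18.2 without a role. Main values are log2 of the processed intensity minus the array's 75th percentile, with outlier spots left out and spots of a probe averaged. limma 3.58.1 in R 4.3.3 compared 3 with 3 animals without covariates (two-sided, Benjamini-Hochberg over 19194 genes, threshold 0.05). Its p-values rest on the spread between these animals, with the variance of each gene drawn toward that of all genes. Fits of single probes were adjusted over the 27975 kept probes. The number of arrays limits the precision. The scripts were tested on simulated data. All kept genes of the name rule are named, and in each pathway list the 4 with the smallest p.

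Gene names are those of the array, checked through RefSeq accessions for 27050 probes. Probe coordinates are mm9, from the scanner files. Promoter coordinates are GRCm38.p6, and the 2 were not combined. Exon and intron positions of probes were not analysed here. No Cd74 sequence is printed. Genes, lists and tests were chosen with earlier results of these data known. H2-K2, H2-D4 and H2-Gs10 were placed among the heavy chains after the files were read. Same-numbered animals did not deviate together (correlations across genes of 0.106, -0.0898 and -0.0389), so numbers were not treated as pairs.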

Additional observations from a re-analysis of the deposited data

How the results depend on the processing

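Over 16 alternatives, 573 gene values were recomputed: 527 kept their sign and 46 turned, and 19 of the 36 genes never turned. Some alternatives left the log2 differences of these genes as they were, so no sign could turn there. They are the filter on all 6 arrays, no filter on dim probes, the slide and replicate blocks, and the trend and robust variance model. The 527 kept signs include them and are not a measure of stability. The smallest adjusted p under any alternative was 0.415. The count of genes at an unadjusted p under 0.05 was 0 as reported, 1 with normexp (H2-K1), 1 with the deposited table (H2-DMb1), 1 with the mean of the probes of a gene and 1 without shared probes (H2-Q10 in both), and 4 with the trend and robust variance model (H2-DMb1, H2-Ke6, Psmb8 and Tapbp). With the replicate block, which equals the slide block here, it was 1 (H2-Q8). Leaving out 1 array gave 0 to 2, and over all genes 759 to 1812, with 1812 without patDp/+ replicate 3, against 1107. The class I median was -0.19 with normexp and -0.12 to -0.070 with 1 array left out, and the class II median -0.034 to 0.12, below 0 without patDp/+ replicate 1.

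Normexp moved the share of all genes below 0 from 56.5% to 40.3%, and the share of higher values among those at p under 0.05 from 41.1% to 61.7%. No filter on dim probes gave 45.9% and 55.9%, and leaving out patDp/+ replicate 3 gave 56% for the latter. Signs turned with normexp for H2-T22 (-0.086), H2-Eb1 (-0.046), H2-Aa (-0.075), H2-Ab1 (-0.090), Tap1 (0.052), Nlrc5 (0.39), H2-Oa (0.20) and H2-Ob (0.61). They turned with quantile normalization for H2-M3 (0.00069), B2m (0.037), Tap1 (0.011) and H2-M10.2 (-0.019), with the deposited table for H2-M10.2 (-0.014), Tap1 (0.024), B2m (0.030) and H2-Q7 (0.23), and with the mean of the probes for H2-M3 (0.023) and H2-T24 (-0.053). The cause was not tested, except for H2-Q7. Of its 10 spots on the array of wild type replicate 2, 1 was marked as an outlier (intensity 271 against 55292 to 65542) and is left out here. Without its row the deposited difference was -0.067. Leaving out 1 array turned the sign within these ranges: B2m -0.060 to 0.012, Ciita -0.12 to 0.045, H2-Aa -0.11 to 0.13, H2-Ab1 -0.043 to 0.10, H2-DMb2 -0.085 to 0.34, H2-Eb1 -0.057 to 0.11, H2-Ke2 -0.0645 to 0.010, H2-M10.2 -0.12 to 0.090, H2-M3 -0.071 to 0.067, H2-Oa -0.29 to 0.034, H2-Ob -0.16 to 0.14, H2-T24 -0.059 to 0.22, Tap1 -0.033 to 0.047 and Tap2 -0.18 to 0.015. Small signal over background limits H2-M10.2, H2-T24, H2-Oa, H2-Ob, H2-DMb2 and Nlrc5.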
